A study of Danio rerio with 20 samples.

Results

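The genes described are the hormones of the pancreatic islet with 3 transcription factors and 1 enzyme of islet cells, followed through 4 zebrafish genotypes. They were chosen by symbol alone: ins, insb, gcga, gcgb, sst1.1, sst1.2, sst2, pdx1, neurod1, isl1 and pcsk1. These symbols led to 11 of the 32520 gene IDs in the count table. RNA came from whole zebrafish larvae in 20 libraries, 5 for each genotype: the double knockout of glo1 and aldh3a1 (labelled DKO), the glo1 knockout (GLO1KO), the aldh3a1 knockout (ALDH3A1KO) and the wild type (WT). All 4 genotypes carried the Tg(fli1:EGFP) transgene, in which a fli1 promoter drives green fluorescent protein in endothelial cells. The knockout alleles were made with CRISPR/Cas9. No age, clutch, founder line or treatment is stated in the sources used here. The study asked, among other things, about glucose homeostasis in these larvae, which is the question the islet genes bear on.

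The islet is the endocrine part of the pancreas. Beta cells make insulin, which lowers blood glucose, alpha cells make glucagon, which raises it, and delta cells make somatostatin, which holds back the release of both. The hormones are cut from longer precursors by proprotein convertases, and the transcription factors Pdx1, Neurod1 and Isl1 act in forming and maintaining the hormone-making cells. Glo1 (glyoxalase) and aldehyde dehydrogenases of the Aldh3 family remove reactive carbonyl compounds.

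Of the 11 IDs, 9 carried the symbol itself. The ID taken as gcgb (ENSDARG00000040907) is listed as GCG and the ID taken as sst1.1 (ENSDARG00000040799) as SST. For gcgb the match is unambiguous, since gcga has an ID of its own. For sst1.1 it is less certain, since sst5, another somatostatin gene, also had no ID of its own. Libraries held 35092716 to 37190519 counts, and levels are given as CPM, counts scaled to library size with TMM factors. CPM are not corrected for transcript length, so levels were compared between genotypes. Where genes of a list are named by their high CPM, this is a count of reads and not a level per length. In larvae labelled as glo1 knockout the targeted gene averaged 4.30 ± 0.724 CPM (double knockout) and 3.66 ± 0.344 CPM (glo1 knockout), against 78.5 ± 2.85 CPM in aldh3a1 knockout larvae and 66.6 ± 3.88 CPM in wild type larvae (SD, n = 5 each). No ID carried the symbol aldh3a1, so the aldh3a1 label was not checked by its own gene.

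All 11 genes had at least some counts, but 2 were too low to judge. insb, a second insulin gene, had 0 to 23 counts per library, with genotype means of 0.144 to 0.296 CPM, and did not pass the filter on low counts. sst2 passed the filter but stayed below 1 CPM on average in every genotype, with 0.498 CPM in double knockouts, 0.412 CPM in glo1 knockouts, 0.412 CPM in aldh3a1 knockouts and 0.383 CPM in wild types. None of its differences passed the test. The counts below are out of the 10 genes tested, sst2 included.

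The beta cell genes ins and pdx1 and the convertase pcsk1 were lower in all 3 knockout genotypes than in wild type, and isl1 was higher in all 3. The glucagon genes gcga and gcgb did not pass the test in any comparison. sst1.1 was higher in aldh3a1 knockouts, and sst1.2 was lower in glo1 knockouts. Against wild type, 6 of the 10 genes passed in aldh3a1 knockouts (3 higher and 3 lower), where 61.3% of all 22234 tested genes passed (29.4% higher and 32% lower). In glo1 knockouts 5 passed (1 higher and 4 lower), against 32.8% of all genes (14.6% higher and 18.1% lower), and in double knockouts 4 passed (1 higher and 3 lower), against 50.3% (23.9% higher and 26.4% lower). With 10 genes, these shares lie within 1 or 2 genes of the background and are not read as differing from it: without wild type replicate 1, 3 genes passed in glo1 knockouts. Their median log2 change was 0.17 in aldh3a1 knockouts, -0.21 in glo1 knockouts and -0.11 in double knockouts, where the median over all tested genes was -0.00, -0.01 and 0.01. Large changes over all genes were mostly falls. Of the genes that passed with a log2 change of at least 1, 3040 fell and 512 rose in aldh3a1 knockouts. In glo1 knockouts 746 fell and 236 rose, and in double knockouts 2065 fell and 462 rose. All 3 comparisons share the same 5 wild type libraries, so they are not independent of each other.

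**Figure D1:**
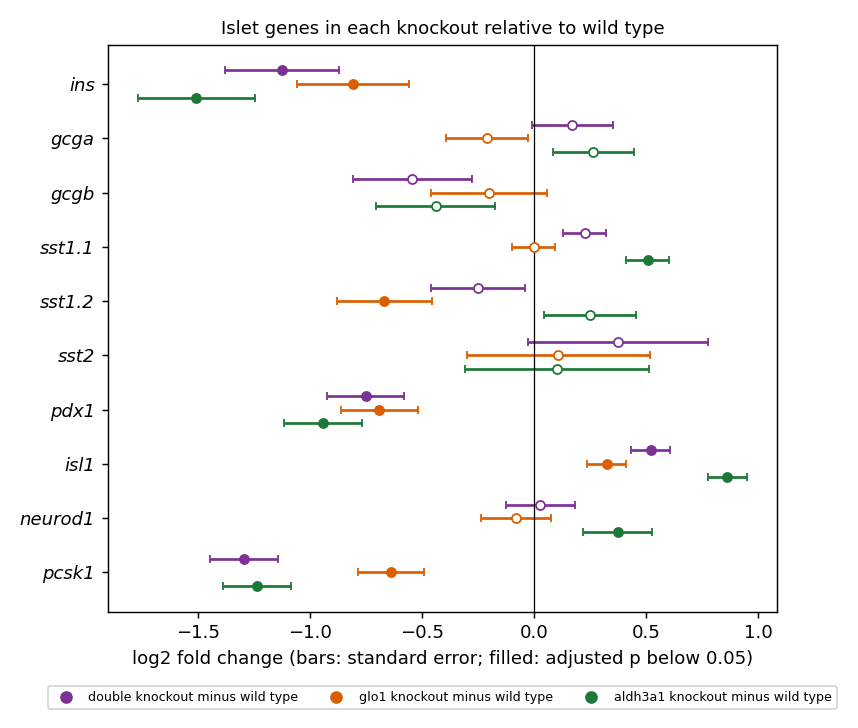
Log2 fold changes of the 10 tested islet genes in double knockout, glo1 knockout and aldh3a1 knockout larvae against wild type, with bars for the standard error and filled points for an edgeR adjusted p below 0.05. ins, pdx1 and pcsk1 lie below 0 and isl1 above 0 in all 3 knockout genotypes, while gcga and gcgb stay unfilled throughout.

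ins encodes insulin, the hormone of beta cells. It stood at 1.65, 1.96, 2.17, 1.76 and 2.22 CPM in the 5 double knockout libraries, at 1.83, 2.67, 1.94, 2.74 and 2.95 CPM in glo1 knockouts, at 1.98, 1.57, 0.742, 1.46 and 1.74 CPM in aldh3a1 knockouts, and at 7.44, 4.32, 2.12, 4.06 and 3.37 CPM in wild types. The aldh3a1 knockout libraries all lay below the lowest wild type library, while 3 double knockout and 2 glo1 knockout libraries did. The means were 1.95 ± 0.250 CPM in double knockouts, 2.43 ± 0.506 CPM in glo1 knockouts and 1.50 ± 0.467 CPM in aldh3a1 knockouts, against 4.26 ± 1.97 CPM in wild types (SD, n = 5 each), where replicate 1 stood highest at 7.44 CPM. ins fell in aldh3a1 knockouts to 35.1% of its wild type level (log2 fold change -1.51, SE 0.26, edgeR adjusted p = 2.67e-05). It fell in double knockouts to 45.8% (-1.13, SE 0.26, edgeR adjusted p = 0.000789) and in glo1 knockouts to 57.0% (-0.81, SE 0.25, edgeR adjusted p = 0.0155). Without wild type replicate 1 the change was -1.21 in aldh3a1 knockouts and -0.83 in double knockouts, both still past the threshold, but -0.51 in glo1 knockouts (edgeR adjusted p = 0.0917), where the call was lost. Libraries held 27 to 293 counts of ins, and in bulk RNA fewer beta cells and less insulin RNA per beta cell cannot be told apart.

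Digestive enzymes of the exocrine pancreas, the tissue around the islet, fell with ins in aldh3a1 and double knockouts. Of the 22 tested exocrine markers, 18 fell and 1 rose in aldh3a1 knockouts, where 32% of all tested genes fell and 29.4% rose. In double knockouts 14 fell and 1 rose, where 26.4% of all genes fell and 23.9% rose. In glo1 knockouts only 2 fell and none rose, where 18.1% of all genes fell and 14.6% rose. The median log2 change of the markers was -1.76 in aldh3a1 knockouts, -1.13 in double knockouts and -0.50 in glo1 knockouts. Their summed level was 154.5 to 351.7 CPM in double knockouts, 376.6 to 581.4 CPM in glo1 knockouts, 67.8 to 251.3 CPM in aldh3a1 knockouts and 428.2 to 1192.7 CPM in wild types. Over all 20 libraries, aldh3a1 knockout replicate 3 was lowest and wild type replicate 1 highest both for ins and for this sum. Wild type replicate 3 was the lowest wild type library for both. Within double knockouts the ends were reversed, with replicate 5 highest for ins (2.22 CPM) and lowest for the sum (154.5 CPM). Within glo1 knockouts, replicate 5 was likewise highest for ins (2.95 CPM) and lowest for the sum (376.6 CPM). None of the 23 exocrine IDs was at 0 in every library, and 5 averaged below 1 CPM. prss1, a trypsinogen gene and the one of highest CPM, averaged 51.1 CPM in double knockouts, 101 CPM in glo1 knockouts, 31.8 CPM in aldh3a1 knockouts and 122 CPM in wild types. The part of the exocrine markers in the ins result was not tested.

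Glucagon, the counterpart of insulin, showed no change past the threshold. gcga, made by alpha cells and in the gut, stood at 1.59, 1.56, 1.93, 2.39 and 1.96 CPM in double knockouts, at 1.61, 1.24, 1.28, 1.59 and 1.50 CPM in glo1 knockouts, at 2.21, 1.94, 1.57, 2.07 and 2.28 CPM in aldh3a1 knockouts, and at 2.06, 1.75, 1.099, 1.95 and 1.51 CPM in wild types. Each knockout genotype overlapped the wild type range. The log2 fold change was 0.17 in double knockouts (edgeR adjusted p = 0.455), -0.21 in glo1 knockouts (0.399) and 0.26 in aldh3a1 knockouts (0.205), each with an SE of 0.18. gcgb, the second glucagon gene, stood at 1.44, 1.07, 1.69, 0.955 and 0.906 CPM in double knockouts, at 0.945, 1.54, 1.37, 1.51 and 2.32 CPM in glo1 knockouts, at 1.24, 0.954, 1.099, 1.43 and 1.80 CPM in aldh3a1 knockouts, and at 3.00, 1.54, 1.13, 1.82 and 1.36 CPM in wild types. All 3 genotypes overlapped wild type, where replicate 1 was again the highest library. The log2 fold change of gcgb was -0.54 in double knockouts (SE 0.27, edgeR adjusted p = 0.0903), -0.20 in glo1 knockouts (SE 0.26, adjusted p = 0.584) and -0.44 in aldh3a1 knockouts (SE 0.26, adjusted p = 0.149). Under scaling by total counts alone gcgb passed in double knockouts (-0.70, edgeR adjusted p = 0.0295), as it did without wild type replicate 3 (-0.67, edgeR adjusted p = 0.0426). Without wild type replicate 1 its change was -0.27 in double knockouts (edgeR adjusted p = 0.406) and -0.17 in aldh3a1 knockouts (0.590).

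**Figure D2:**
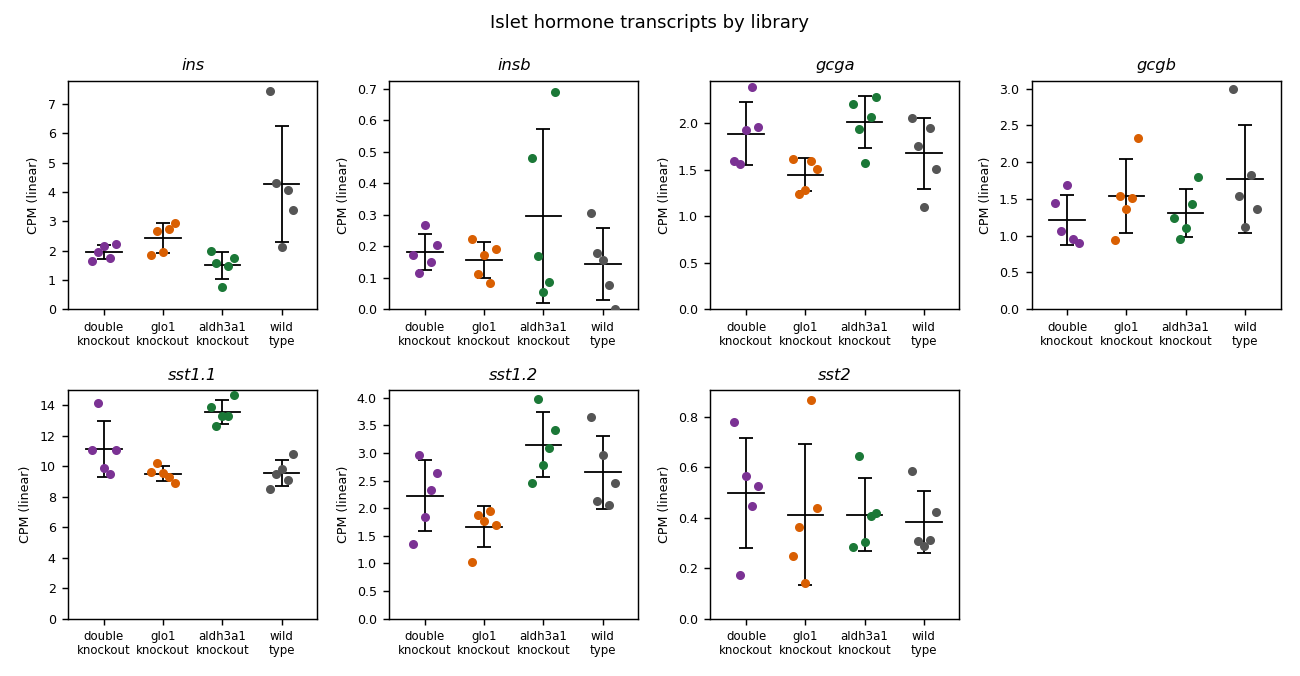
CPM of the islet hormone genes in each of the 20 libraries, by genotype, with a line for the mean and a bar for the SD (n = 5 each). The wild type libraries of ins spread from 2.12 to 7.44 CPM and the knockout libraries stay at or below 2.95 CPM, while the genotypes overlap for gcga and gcgb.

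Somatostatin genes are active in delta cells and also in neurons and gut cells. sst1.1 rose in aldh3a1 knockouts, where ins fell, and sst1.2 fell in glo1 knockouts, as ins did. sst1.1 stood at 11.1, 14.2, 9.88, 9.49 and 11.1 CPM in double knockouts, at 9.62, 10.2, 9.58, 9.29 and 8.86 CPM in glo1 knockouts, at 13.9, 12.6, 13.3, 13.3 and 14.6 CPM in aldh3a1 knockouts, and at 8.51, 9.46, 9.81, 9.10 and 10.8 CPM in wild types. The aldh3a1 knockout libraries all lay above the highest wild type library, and the other knockouts overlapped wild type. sst1.1 rose in aldh3a1 knockouts to 142% of wild type (log2 fold change 0.51, SE 0.10, edgeR adjusted p = 6.12e-05). The changes in glo1 knockouts (-0.00, SE 0.10, edgeR adjusted p = 0.983) and in double knockouts (0.22, SE 0.10, edgeR adjusted p = 0.0527) did not pass. The double knockout change passed in 8 of 30 alternative settings and was 0.07 when libraries were scaled by total counts alone (edgeR adjusted p = 0.588). sst1.2 stood at 1.36, 2.97, 1.84, 2.33 and 2.63 CPM in double knockouts, at 1.03, 1.88, 1.77, 1.96 and 1.70 CPM in glo1 knockouts, at 2.46, 3.99, 2.77, 3.09 and 3.42 CPM in aldh3a1 knockouts, and at 3.66, 2.13, 2.96, 2.05 and 2.45 CPM in wild types. Only the glo1 knockout libraries were clear of the wild type range, all below it. sst1.2 fell in glo1 knockouts (-0.67, SE 0.21, edgeR adjusted p = 0.0183), a call that was lost without wild type replicate 1 (-0.53, edgeR adjusted p = 0.0759) and without glo1 knockout replicate 1 (-0.54, edgeR adjusted p = 0.0588). Its changes in double knockouts (-0.25, SE 0.21, edgeR adjusted p = 0.331) and aldh3a1 knockouts (0.25, SE 0.21, edgeR adjusted p = 0.305) did not pass.

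Within a library, ins was set against gcga and sst1.1, as a description with no test. The log2 ratio of ins over gcga averaged 0.06 ± 0.29 in double knockouts, 0.72 ± 0.36 in glo1 knockouts, -0.48 ± 0.35 in aldh3a1 knockouts and 1.26 ± 0.36 in wild types (SD, n = 5 each). The highest aldh3a1 knockout library was at -0.16 and the lowest wild type library at 0.94. The log2 ratio of ins over sst1.1 averaged -2.50 ± 0.28 in double knockouts, -1.99 ± 0.34 in glo1 knockouts and -3.23 ± 0.52 in aldh3a1 knockouts, against -1.27 ± 0.75 in wild types. The ratio of gcga over sst1.1 stayed close together, at -2.56 ± 0.45 in double knockouts, -2.71 ± 0.23 in glo1 knockouts and -2.75 ± 0.18 in aldh3a1 knockouts, against -2.53 ± 0.45 in wild types. Set against the mean log2 level of the exocrine markers, ins was also similar between genotypes, at -1.32 ± 0.51 in double knockouts, -1.45 ± 0.60 in glo1 knockouts and -1.16 ± 0.34 in aldh3a1 knockouts, against -1.28 ± 0.21 in wild types. A ratio shows unequal change of its 2 parts and not which of them changed.

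**Figure D3:**
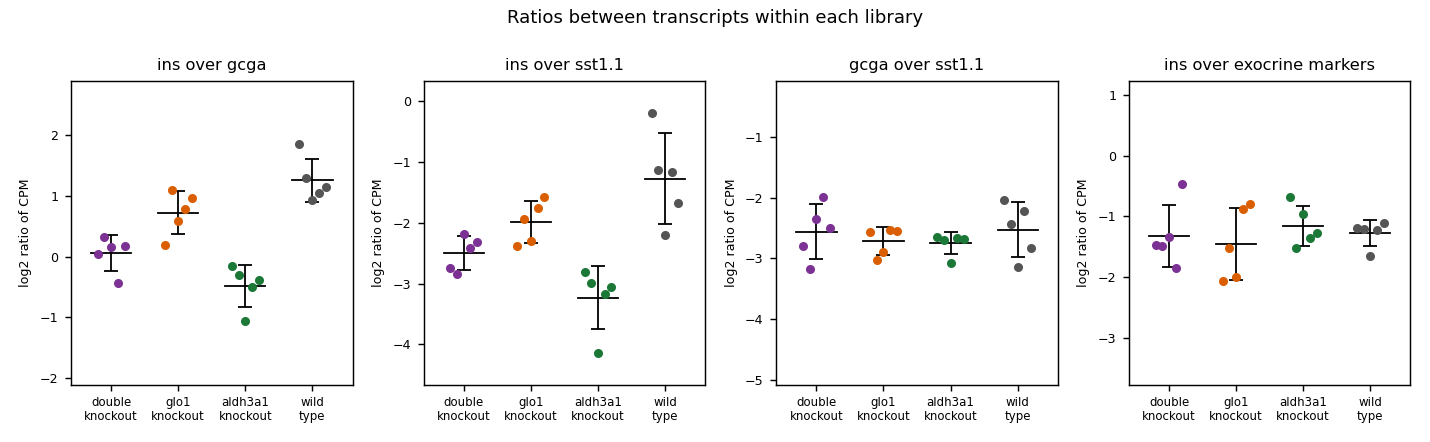
Log2 ratios of islet hormone genes, and of ins over the exocrine markers, in each library by genotype, with a line for the mean and a bar for the SD (n = 5 each). ins over gcga separates aldh3a1 knockouts (highest at -0.16) and double knockouts (highest at 0.33) from wild types (lowest at 0.94). In contrast, ins over the exocrine markers overlaps between all genotypes.

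pdx1 encodes a homeobox factor that forms the pancreas and keeps insulin transcribed in beta cells. It stood at 2.14, 2.57, 2.97, 2.80 and 1.40 CPM in double knockouts, at 2.67, 2.11, 2.25, 2.80 and 2.57 CPM in glo1 knockouts, at 2.07, 2.36, 1.54, 2.39 and 2.07 CPM in aldh3a1 knockouts, and at 5.13, 3.70, 3.51, 3.85 and 3.84 CPM in wild types. All 15 knockout libraries lay below the lowest wild type library. pdx1 fell in aldh3a1 knockouts to 52.0% of wild type (log2 fold change -0.94, SE 0.17, edgeR adjusted p = 5.12e-05), in double knockouts by 0.75 on the log2 scale (SE 0.17, edgeR adjusted p = 0.000809) and in glo1 knockouts by 0.69 (SE 0.17, edgeR adjusted p = 0.00356). Without wild type replicate 1, its highest library, the changes were -0.65 in double knockouts, -0.59 in glo1 knockouts and -0.84 in aldh3a1 knockouts, and all passed. The 3 knockout genotypes overlapped each other. pdx1 also marks the duodenum, so its level in whole larvae is not that of the islet alone.

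neurod1 encodes a basic helix-loop-helix factor of endocrine cells that is also a factor of neurons and of the retina. It stood at 232, 191, 206, 231 and 237 CPM in double knockouts, at 166, 211, 212, 226 and 202 CPM in glo1 knockouts, at 268, 244, 302, 279 and 300.1 CPM in aldh3a1 knockouts, and at 279.9, 144, 198, 287 and 168 CPM in wild types. Wild type libraries spread widely, from 144 to 287 CPM, and 2 aldh3a1 knockout libraries lay above them. The rise in aldh3a1 knockouts was 0.37 (SE 0.15, edgeR adjusted p = 0.0450) and passed in only 12 of 30 alternative settings, with adjusted p-values from 0.0069 to 0.127. It was lost without any of wild type replicates 2, 3 and 5, aldh3a1 knockout replicates 1, 3, 4 and 5, glo1 knockout replicates 2, 3 and 5, or double knockout replicates 1, 4 and 5. The change was 0.26 without wild type replicate 2 (edgeR adjusted p = 0.107). neurod1 did not pass in glo1 knockouts (-0.08, SE 0.15, edgeR adjusted p = 0.723) or in double knockouts (0.03, SE 0.15, edgeR adjusted p = 0.901).

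isl1 encodes a LIM homeobox factor of all islet endocrine cells, which is also a factor of motor and sensory neurons, the retina and the heart. It stood at 107, 87.8, 85.8, 108 and 121 CPM in double knockouts, at 78.1, 86.3, 96.5, 91.3 and 92.0 CPM in glo1 knockouts, at 109, 133, 133, 149.5 and 122 CPM in aldh3a1 knockouts, and at 70.7, 66.0, 70.3, 71.4 and 76.8 CPM in wild types. Every knockout library lay above the highest wild type library. isl1 rose in aldh3a1 knockouts to 182% of wild type (log2 fold change 0.86, SE 0.09, edgeR adjusted p = 1.67e-08), in double knockouts by 0.52 (SE 0.09, edgeR adjusted p = 2.86e-05) and in glo1 knockouts by 0.32 (SE 0.09, edgeR adjusted p = 0.0065). The glo1 knockout call was lost when libraries were scaled by total counts alone (0.22, edgeR adjusted p = 0.0661).

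Markers of the other cells that use neurod1 and isl1 were looked at beside them. Of all tested genes, 23.9% rose and 26.4% fell in double knockouts, 14.6% and 18.1% in glo1 knockouts, and 29.4% and 32% in aldh3a1 knockouts. Of 24 photoreceptor markers, 12 rose and 1 fell in double knockouts, 12 rose and 1 fell in glo1 knockouts, and 14 rose and 2 fell in aldh3a1 knockouts, with median log2 changes of 0.27 in double knockouts, 0.36 in glo1 knockouts and 0.41 in aldh3a1 knockouts. Their summed level was 11025.7 to 12955.2 CPM in double knockouts, 11545.1 to 13193.4 CPM in glo1 knockouts and 11426.2 to 13710.9 CPM in aldh3a1 knockouts, against 9279.7 to 10895.8 CPM in wild types. Of 30 tested pan-neuronal markers, 6 rose and 15 fell in double knockouts, 6 rose and 14 fell in glo1 knockouts, and 15 rose and 11 fell in aldh3a1 knockouts. The pan-neuronal sum was 4570.6 to 5569.6 CPM in double knockouts, 4835.9 to 5626.7 CPM in glo1 knockouts, 6120.4 to 6753.4 CPM in aldh3a1 knockouts and 4893.3 to 5446.8 CPM in wild types. By this sum only the aldh3a1 knockouts stood clear of wild type. By the mean log2 CPM of the tested pan-neuronal markers they overlapped it, at 6.53 to 6.74 against 6.62 to 6.74 in wild types. By this mean the glo1 knockouts also overlapped wild type, at 6.36 to 6.65. The double knockouts all lay below it, at 6.22 to 6.51. Of 14 motor neuron markers, 5 rose and 6 fell in double knockouts, 1 rose and 5 fell in glo1 knockouts, and 4 rose and 4 fell in aldh3a1 knockouts. The motor neuron sum was 266.5 to 331.4 CPM in double knockouts, 274.6 to 330.6 CPM in glo1 knockouts, 331.3 to 375.1 CPM in aldh3a1 knockouts and 301.7 to 347.0 CPM in wild types. No photoreceptor or motor neuron marker was at 0 in all libraries, and 1 pan-neuronal ID was. The part of these cells in the isl1, neurod1 and sst1.1 results was not tested.

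**Figure D4:**
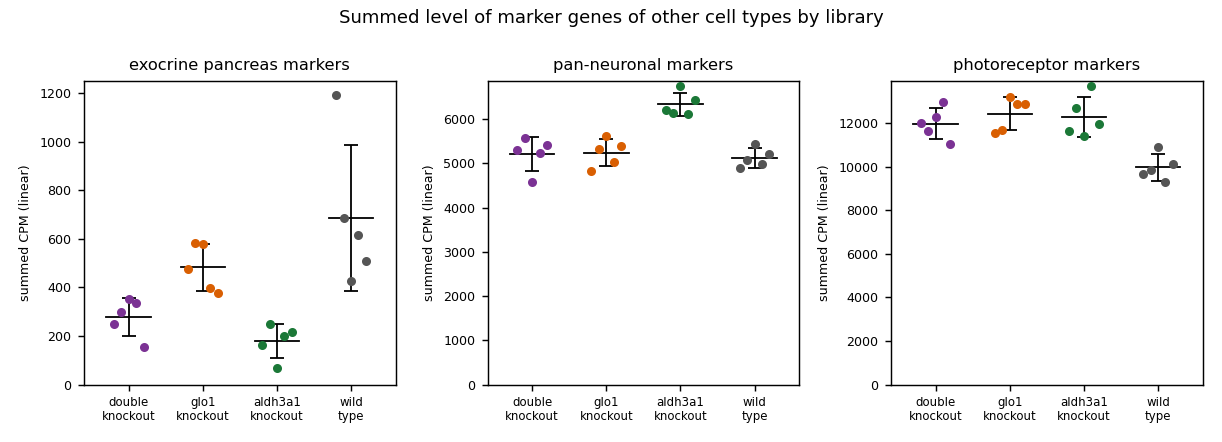
Summed CPM of marker lists of other cell types in each library by genotype, with a line for the mean and a bar for the SD (n = 5 each). The exocrine sum is lowest in aldh3a1 knockouts (67.8 to 251.3 CPM) and highest in wild types (428.2 to 1192.7 CPM), and the photoreceptor sum lies above the wild type range in every knockout library.

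pcsk1 encodes the proprotein convertase that makes the first cuts in proinsulin, and it also works in neuroendocrine cells of the brain, pituitary and gut. It stood at 17.9, 18.5, 16.4, 12.5 and 11.7 CPM in double knockouts, at 24.5, 21.6, 27.0, 21.4 and 27.0 CPM in glo1 knockouts, at 19.4, 20.5, 13.6, 13.1 and 13.5 CPM in aldh3a1 knockouts, and at 32.7, 42.4, 45.6, 33.4 and 34.9 CPM in wild types. Its genotypes formed 3 steps without overlap: wild type highest, glo1 knockout next, and aldh3a1 and double knockouts together at the bottom. pcsk1 fell in aldh3a1 knockouts to 42.4% of wild type (log2 fold change -1.24, SE 0.15, edgeR adjusted p = 7.69e-07), in double knockouts by 1.30 on the log2 scale (SE 0.15, edgeR adjusted p = 1.04e-06) and in glo1 knockouts by 0.64 (SE 0.15, edgeR adjusted p = 0.00289). Of all tested genes, 29.4% rose and 32% fell in aldh3a1 knockouts, 14.6% and 18.1% in glo1 knockouts, and 23.9% and 26.4% in double knockouts. Of the other neuroendocrine markers, 3 of 10 tested enteroendocrine genes rose and none fell in aldh3a1 knockouts. In glo1 knockouts 1 of these genes rose and 1 fell, and in double knockouts 3 rose and 1 fell. Their sum was 46.3 to 52.9 CPM in double knockouts, 44.6 to 46.8 CPM in glo1 knockouts, 46.3 to 59.3 CPM in aldh3a1 knockouts and 41.7 to 45.0 CPM in wild types. Of 6 tested pituitary markers, 2 rose in double knockouts, 1 in glo1 knockouts and 3 in aldh3a1 knockouts, and none fell. Their sum over 15 IDs was 28.7 to 34.7 CPM in double knockouts, 27.3 to 32.3 CPM in glo1 knockouts and 28.9 to 34.8 CPM in aldh3a1 knockouts, all above the 20.7 to 25.4 CPM of wild types. Most of that sum was pitx3, a factor also of the lens, and LHX3, also of motor neurons, while 12 of the 15 IDs averaged below 1 CPM. The part of gut and pituitary cells in the pcsk1 result was not tested.

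**Figure D5:**
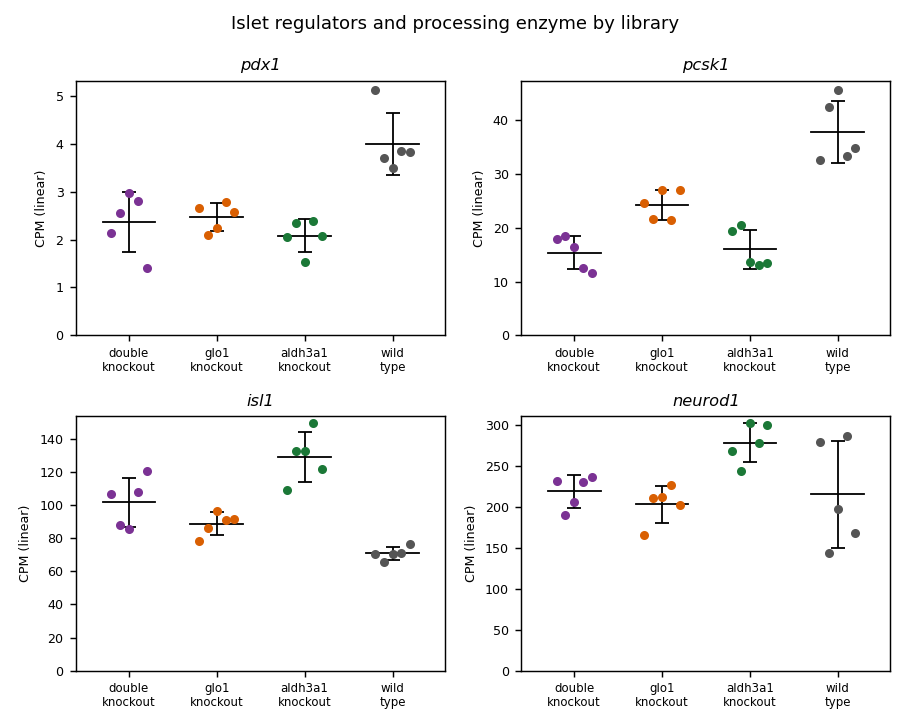
CPM of the islet transcription factors pdx1, neurod1 and isl1 and of the convertase pcsk1 in each library by genotype, with a line for the mean and a bar for the SD (n = 5 each). All knockout libraries lie below the wild type libraries for pdx1 and pcsk1 and above them for isl1, while the wild type libraries of neurod1 spread from 144 to 287 CPM.

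Libraries of knockouts and wild type did not overlap for 5 of the 10 tested genes in aldh3a1 knockouts (ins, sst1.1, pdx1, isl1 and pcsk1), where 43.1% of all tested genes did not overlap. In glo1 knockouts this held for 4 genes (sst1.2, pdx1, isl1 and pcsk1) against 22.3% of all genes, and in double knockouts for 3 (pdx1, isl1 and pcsk1) against 34.4%. By genotype mean, ins ran wild type, glo1 knockout, double knockout and aldh3a1 knockout from high to low, with every neighbouring pair overlapping. pdx1 had the same order, with a gap between wild type and the rest only. isl1 ran aldh3a1 knockout, double knockout, glo1 knockout and wild type, with a gap above wild type only.

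The double knockout can also be set against each single knockout. Against aldh3a1 knockouts, 2 of the 10 genes passed, both lower, where 22.7% of all tested genes passed (11.1% higher and 11.6% lower). isl1 was lower by 0.34 on the log2 scale (-0.34, SE 0.09, edgeR adjusted p = 0.00572) and sst1.1 by 0.28 (-0.28, SE 0.09, edgeR adjusted p = 0.0338). The sst1.1 call held in 20 of 30 alternative settings and was lost without any of aldh3a1 knockout replicates 1, 4 and 5 or double knockout replicates 1, 3, 4 and 5, with the adjusted p reaching 0.139 without double knockout replicate 3. ins differed by 0.38 (SE 0.27, edgeR adjusted p = 0.336) and did not pass. neurod1 libraries did not overlap between these genotypes, the only gene of the 10 for which this held, against 14.2% of all genes, but the change of -0.35 (SE 0.15, edgeR adjusted p = 0.120) did not pass when the spread was shared by all genotypes. Fitted on the compared genotypes alone it passed (-0.33, edgeR adjusted p = 0.0047). Against glo1 knockouts, only pcsk1 passed, lower by 0.66 (-0.66, SE 0.15, edgeR adjusted p = 0.00952) and without overlap, where 11.3% of all genes passed (4.52% higher and 6.82% lower) and 10.7% did not overlap. ins was not called there either (-0.31, SE 0.26, edgeR adjusted p = 0.482).

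The interaction compares the double knockout with the sum of both single knockout changes on the log2 scale, and a positive value means a level above that sum. It passed for 4 of the 10 genes (3 above and 1 below), against 35.6% of all tested genes (18.7% above and 16.9% below). ins lay 1.19 above the sum (SE 0.37, edgeR adjusted p = 0.0148), pdx1 0.88 above (SE 0.25, edgeR adjusted p = 0.00821) and pcsk1 0.58 above (SE 0.21, edgeR adjusted p = 0.0391). isl1 lay below it (-0.66, SE 0.12, edgeR adjusted p = 0.000294). For these 4 genes the double knockout was thus less far from wild type than the single changes added together. The same 5 wild type libraries enter all of these changes. An offset of wild type from every knockout therefore cannot be told apart here from an interaction of the 2 genes. For sst1.1 the interaction of -0.28 (SE 0.13, edgeR adjusted p = 0.111) did not pass. Without wild type replicate 1 the interaction of ins was 0.90 (edgeR adjusted p = 0.0352). The pcsk1 interaction passed in 17 of 29 alternative settings, with adjusted p-values from 0.0132 to 0.0760. It was lost without any of wild type replicates 2 and 3, aldh3a1 knockout replicates 3, 4 and 5, glo1 knockout replicates 1, 2 and 4, or double knockout replicates 1, 2 and 3.

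Other genes of islet biology were taken from lists by their role, and each list is described by its counts and median. The counts of every list below stand beside the same shares of all tested genes. These shares were 23.9% higher and 26.4% lower in double knockouts, 14.6% and 18.1% in glo1 knockouts, and 29.4% and 32% in aldh3a1 knockouts. Of 37 tested islet transcription factor genes, 9 rose and 14 fell in double knockouts, 6 rose and 13 fell in glo1 knockouts, and 12 rose and 16 fell in aldh3a1 knockouts. Their median log2 change was -0.10 in double knockouts, -0.14 in glo1 knockouts and -0.11 in aldh3a1 knockouts. Among those of highest CPM, PAX6 (ENSDARG00000103379), a factor of islet cells, eye and brain, rose by 0.49 in double knockouts (edgeR adjusted p = 9.55e-06), 0.30 in glo1 knockouts (0.00416) and 0.78 in aldh3a1 knockouts (6.43e-09), with an SE of 0.08 each. MYT1 (ENSDARG00000074030), a zinc finger factor of endocrine and neural cells, fell by 0.41 in double knockouts (edgeR adjusted p = 2.35e-05), 0.22 in glo1 knockouts (0.0159) and 0.27 in aldh3a1 knockouts (0.00137), with an SE of 0.07 each. Several factors were picked for their role after their values were seen. SOX9 (ENSDARG00000003293) fell by 1.08 in double knockouts (edgeR adjusted p = 3e-07), 0.61 in glo1 knockouts (0.000747) and 1.32 in aldh3a1 knockouts (6.5e-09). Another ID (ENSDARG00000043923) also carried the symbol SOX9 and is not reported here. The symbol does not tell which ID is the paralog of pancreatic progenitors and ducts, so the fall above is not read as pancreatic. HNF4A, a factor of liver, gut and beta cells, fell by 1.08 in double knockouts (edgeR adjusted p = 2.39e-05), 0.73 in glo1 knockouts (0.00294) and 1.21 in aldh3a1 knockouts (3.35e-06). NKX2-2 (ENSDARG00000053298), a factor of endocrine cells and of the ventral neural tube, rose by 0.33 in double knockouts (edgeR adjusted p = 0.00401), 0.24 in glo1 knockouts (0.0394) and 0.46 in aldh3a1 knockouts (0.000106).

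Of 31 hormone processing and secretory granule genes, 3 rose and 19 fell in double knockouts, 4 rose and 12 fell in glo1 knockouts, and 6 rose and 12 fell in aldh3a1 knockouts. Their median log2 change was -0.22 in double knockouts, -0.16 in glo1 knockouts and -0.04 in aldh3a1 knockouts. Against aldh3a1 knockouts 3 were higher and 14 lower in double knockouts (median -0.18), where 11.1% of all tested genes were higher and 11.6% lower. CPE, the carboxypeptidase that trims hormones after the convertases, averaged 529.98 CPM in double knockouts, 643 CPM in glo1 knockouts, 674 CPM in aldh3a1 knockouts and 618 CPM in wild types. It fell in double knockouts by 0.22 (SE 0.06, edgeR adjusted p = 0.00216) and did not pass in either single knockout. Picked for its role after its values were seen, PCSK2, the convertase that works beside pcsk1 and makes glucagon, fell by 1.07 in double knockouts (SE 0.16, edgeR adjusted p = 8.92e-06), 0.59 in glo1 knockouts (SE 0.15, adjusted p = 0.00614) and 1.15 in aldh3a1 knockouts (SE 0.16, adjusted p = 2e-06). SLC30A8, the zinc transporter of insulin granules and chosen likewise, fell in aldh3a1 knockouts (-0.74, SE 0.14, edgeR adjusted p = 9.58e-05), with -0.16 in double knockouts and -0.20 in glo1 knockouts, which did not pass.

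Of 17 tested genes of beta cell glucose sensing, 2 rose and 10 fell in double knockouts, 1 rose and 8 fell in glo1 knockouts, and 4 rose and 10 fell in aldh3a1 knockouts. Their median log2 change was -0.39 in double knockouts, -0.19 in glo1 knockouts and -0.31 in aldh3a1 knockouts. UCP2, a mitochondrial carrier and the one of highest CPM, averaged 209.9 CPM in double knockouts, 176 CPM in glo1 knockouts, 183 CPM in aldh3a1 knockouts and 137 CPM in wild types. It rose in double knockouts (0.62, SE 0.17, edgeR adjusted p = 0.00689) and in aldh3a1 knockouts (0.42, SE 0.17, edgeR adjusted p = 0.0434). G6PC1 (ENSDARG00000013721), the catalytic subunit of glucose-6-phosphatase and chiefly a liver gene, fell by 0.56 in double knockouts (edgeR adjusted p = 0.00689) and 1.11 in aldh3a1 knockouts (9.39e-06), with an SE of 0.16 each. For UCP2 and G6PC1, the test in glo1 knockouts is not reported here. Of the beta cell ATP-sensitive potassium channel, the subunit genes reported here had changes of opposite sign that both passed only in aldh3a1 knockouts. ABCC8 (ENSDARG00000051879), its sulfonylurea receptor, was at 0.12 in double knockouts, 0.06 in glo1 knockouts and 0.23 in aldh3a1 knockouts, where it passed (SE 0.07, edgeR adjusted p = 0.0061). kcnj11, its pore and picked after its values were seen, fell by 0.55 in double knockouts (edgeR adjusted p = 6.63e-05), 0.38 in glo1 knockouts (0.00482) and 0.78 in aldh3a1 knockouts (3.94e-07), with an SE of 0.10 each. Another ABCC8 ID (ENSDARG00000077007) and kcnj11l are also on the list and are not reported here. Many genes of this list and of the preceding lists are also expressed in brain, liver or gut, and the part of those tissues was not tested.

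Of 12 tested genes of other pancreatic and gut hormones, 4 rose and 1 fell in double knockouts, 5 rose and 1 fell in glo1 knockouts, and 6 rose and none fell in aldh3a1 knockouts. Their median log2 change was 0.11 in double knockouts, 0.11 in glo1 knockouts and 0.37 in aldh3a1 knockouts. pyya, a peptide YY gene of gut and islet cells, averaged 19.4 CPM in double knockouts, 18.3 CPM in glo1 knockouts and 24.3 CPM in aldh3a1 knockouts, against 14.3 CPM in wild types. It rose by 0.44 in double knockouts (edgeR adjusted p = 1.42e-05), 0.35 in glo1 knockouts (0.000572) and 0.76 in aldh3a1 knockouts (2.76e-09), with an SE of 0.07 each. CCK (ENSDARG00000070810), cholecystokinin of gut and brain, rose by 0.41 in double knockouts (edgeR adjusted p = 0.00171), 0.45 in glo1 knockouts (0.00183) and 0.59 in aldh3a1 knockouts (2.39e-05), with an SE of 0.10 each. Of 13 receptor genes of islet hormones, 3 rose and 4 fell in double knockouts, 2 rose and 5 fell in glo1 knockouts, and 4 rose and 6 fell in aldh3a1 knockouts. Of the insulin receptor IDs, INSR (ENSDARG00000071524) averaged 15.5 CPM in double knockouts, 19.4 CPM in glo1 knockouts, 12.4 CPM in aldh3a1 knockouts and 27.3 CPM in wild types. It fell by 0.82 in double knockouts (SE 0.16, edgeR adjusted p = 0.000194), 0.49 in glo1 knockouts (SE 0.15, adjusted p = 0.0181) and 1.13 in aldh3a1 knockouts (SE 0.16, adjusted p = 3.22e-06). The other INSR (ENSDARG00000011948) averaged 62.5 CPM in double knockouts, 56.2 CPM in glo1 knockouts, 57.1 CPM in aldh3a1 knockouts and 54.9 CPM in wild types, and passed only in double knockouts (0.19, SE 0.05, edgeR adjusted p = 0.00333). Of 11 tested genes of endocrine progenitors and Notch signalling, which decides between progenitor and endocrine fate, 3 rose and 4 fell in double knockouts. In glo1 knockouts 2 of them rose and 2 fell, and in aldh3a1 knockouts 4 rose and 6 fell. The list entry dld, a Notch ligand, was matched to an ID listed as DLD, also the symbol of the enzyme dihydrolipoamide dehydrogenase. These counts may therefore include a gene outside Notch signalling.

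The genes whose levels ran most like a given member over the 20 libraries were found by the root mean square difference of log2 CPM profiles, each centred on its mean, among 16302 genes. Nearest to ins were kynu at 0.28, gsta.1 at 0.28 and SLC2A2 at 0.29, where the median gene was at 0.70. kynu is an enzyme of tryptophan breakdown, gsta.1 a glutathione transferase, and SLC2A2 the glucose transporter of liver, gut and beta cells. Near to pdx1 were ugt2a4 at 0.18 and TDO2 at 0.18, against a median of 0.50. Nearest to gcga were ABCB9 at 0.15, ENOSF1 at 0.17 and STARD4 at 0.18, against 0.36, and nearest to sst1.1 were btbd10a, NAA30 and AP1S1, each at 0.11, against 0.31. ins and pdx1 were 0.44 apart from each other, and ins and gcga 0.73. The libraries share their genotypes, so these distances describe the 4 genotype means as much as the libraries.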

How the data were processed

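Whole-number counts per gene were deposited by the authors for 20 libraries. Reads were assigned to genes of build GRCz11 with featureCounts 2.0.3, per the submitters' processing notes. Per the labels' protocols, the libraries were strand-specific mRNA libraries. The sources used here do not give aligner, annotation or strand setting, and overlapping and antisense genes, and reads of near-identical paralogs, may share counts.

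Of 32520 IDs, 29201 had a symbol. Symbols were matched exactly, then by stem, then by synonyms from RefSeq GRCz12tu. The stem step was chosen after the files were opened. The list entry cpa was left out because its stem is the symbol of ceruloplasmin. The entry dld was kept, though DLD is also the symbol of dihydrolipoamide dehydrogenase. The members and lists were chosen with earlier results of these data known, and the lists were not tested as sets.

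After filterByExpr, 22234 genes were tested, with 99.97% of the counts, in one edgeR 4.0.16 quasi-likelihood fit over all 20 libraries (R 4.3.3, TMM factors, robust, two-sided), with Benjamini-Hochberg adjustment over all genes and a threshold of 0.05. The fit was also run on simulated counts in which few genes changed, equally up and down and in aldh3a1 knockouts alone. Far more genes passed in the real data, so that run does not check the scaling here. The standard error of a log2 fold change is its absolute value divided by the root of F. Levels are CPM with TMM factors. Percentages of wild type are fitted folds. A gene was called too low to judge if it failed the filter or averaged below 1 CPM in every genotype. The text names all members, from each list some of the 4 genes of highest mean CPM, and the 3 genes nearest to ins, gcga, sst1.1 and pdx1, of which 1 is not reported here; genes named otherwise are marked.

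Alternatives were RLE, upper quartile and total-count scaling, DESeq2 1.42.0, limma-voom 3.58.1, other filters, no robust step, a replicate block, a fit of the compared genotypes alone, and leaving out each library. Nothing in the labels says that libraries came from separate clutches, and the spread behind the p-values is that of these libraries, possibly only technical. Figures were drawn with matplotlib 3.10.9.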

Additional observations from a re-analysis of the deposited data

Results flagged for a closer look

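Among 44 groups of 5 libraries, 2 held a library set apart from the other 4, where chance gives about 1 in 20. sst1.2 was at 1.03 CPM in glo1 knockout replicate 1, below 1.70 to 1.96 CPM in the other glo1 knockouts. pdx1 was at 5.13 CPM in wild type replicate 1, above 3.51 to 3.85 CPM in the other wild types.

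The effect of the double knockout differed from the sum of the single knockout effects for 4 genes by the test of the interaction (edgeR). On the log2 scale the difference was 1.19 for ins (adjusted p = 0.0148), 0.88 for pdx1 (adjusted p = 0.00821), 0.58 for pcsk1 (adjusted p = 0.0391) and -0.66 for isl1 (adjusted p = 0.000294). The same test passed for 35.6% of all tested genes. All changes in it are taken from the same wild type libraries, so an offset of these libraries cannot be told apart from an interaction.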

How the results depend on the processing

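Of 1784 values of single islet genes under alternative settings, 1726 kept their side of the threshold, 44 lost the call and 14 gained it. No called value changed sign, while 31 values that did not pass either way did, in 11 of 60 results. The count of islet genes passing in double knockouts against aldh3a1 knockouts was 2, and 1 under upper quartile scaling and 1 without a filter on low counts. Leaving out each library gave 1 to 3 genes there, 3 to 5 in glo1 knockouts against wild type (3 without wild type replicate 1) and 1 to 2 in double knockouts against glo1 knockouts (2 without double knockout replicate 3). Over all genes, the last comparison gave 2521 calls, and 1302 to 2854 when each library was left out: 1302 without double knockout replicate 4, 1331 without glo1 knockout replicate 5 and 1451 without double knockout replicate 5. Scaling by total counts alone moved the median of all genes to -0.14 in double knockouts, -0.11 in glo1 knockouts and -0.11 in aldh3a1 knockouts, against wild type. The glo1 decrease stayed between -4.29 and -4.15 in glo1 knockouts.

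The labels number the replicates 1 to 5 in each genotype. Deviations of same-numbered libraries correlated above 0.1 in 5 of 30 pairs (-0.16 to 0.25). Their median correlation was 0.003, against 0.005 for libraries of different number. The highest was that of replicate 3 of aldh3a1 knockouts and of wild types (0.25). The labels do not say whether a shared number marks a shared batch, and this was not tested. With a replicate block, 4 islet genes passed in double knockouts, 5 in glo1 knockouts and 6 in aldh3a1 knockouts, as without it, and 11039, 7097 and 13511 of all genes. Libraries held 27 to 293 counts of ins and 31 to 118 of gcgb. The SE of their log2 changes against wild type was 0.25 to 0.27, so small changes of these hormones may have been missed. The smallest change that could be detected was not computed.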

Other observations

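Several genes that belong to islet biology are present as a pair of IDs with 1 symbol, and in some pairs the IDs moved in opposite directions. Of 17 pairs in the islet lists with both IDs tested, both passed against wild type in 9 pairs in double knockouts, 8 in glo1 knockouts and 12 in aldh3a1 knockouts, and 4 moved in opposite directions in each genotype (23.5% of the 17 pairs). Among all 1569 pairs of IDs sharing a symbol, the opposite pairs were 9.56% in double knockouts, 3.63% in glo1 knockouts and 15.6% in aldh3a1 knockouts. Islet pairs passed more often, so the share among pairs with both IDs passing is also given. In aldh3a1 knockouts it was 33.3% of islet pairs and 32.2% of all pairs. It was 44.4% and 28.3% in double knockouts, and 50% and 20.7% in glo1 knockouts. The islet pairs were picked after their values were seen, and how reads were divided between paralogs was not tested.

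SSTR2, a somatostatin receptor, was such a pair in all 3 genotypes. One ID (ENSDARG00000069806) averaged 2.02 CPM in double knockouts, 1.85 CPM in glo1 knockouts and 1.90 CPM in aldh3a1 knockouts, against 0.973 CPM in wild types. The other (ENSDARG00000059090) averaged 0.971 CPM in double knockouts, 1.36 CPM in glo1 knockouts and 0.785 CPM in aldh3a1 knockouts, against 2.66 CPM in wild types. SCG5, the chaperone of the convertase PCSK2, was such a pair in both single knockouts. Its ID ENSDARG00000077045 stood at 0.723, 0.758, 0.826, 2.32 and 0.985 CPM in glo1 knockouts, against 7.29, 7.61, 6.36, 7.80 and 4.31 CPM in wild types, a log2 change of -2.57 (SE 0.35, edgeR adjusted p = 4.82e-05). In double knockouts, which also carry the glo1 knockout, it stood at 6.64, 6.84, 5.02, 15.5 and 5.35 CPM, a log2 change of 0.24 from wild type that did not pass (SE 0.30, edgeR adjusted p = 0.536). Its interaction was 3.81 (SE 0.47, edgeR adjusted p = 1.68e-05).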
